A study of Mus musculus with 57 samples.

Results

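Transport between the endoplasmic reticulum (ER) and the Golgi was examined through 49 genes, chosen by name for their known role and not by their values. They are subunits of the COPI and COPII vesicle coats, the GTPases that recruit these coats, the SNAREs, tethers, Rab GTPases and TRAPP subunits through which vesicles are caught and fused, and the receptors that load cargo. All 49 were found among the 45337 genes of the deposited table, each under 1 Ensembl identifier. RNA was measured by SMART-Seq in 57 libraries from the brains of 32 mice, 25 of which gave a library of each cell type. The cells were corticospinal neurons (CSN), the cortical output neurons that reach the spinal cord, and control cells, which the labels do not describe further. The mice carried Sod1G86R, a mutant form of the enzyme superoxide dismutase used to model motor neuron disease, or were wild type (WT), and the ages were 30, 60, 90 and 105 days (bare numbers in the labels, taken as days). Sod1G86R CSN gave 3, 4, 4 and 2 libraries at these ages and WT CSN gave 4 at each, so 13 and 16 in all. Sod1G86R control cells gave 3, 3, 4 and 4 and WT control cells 4, 2, 4 and 4, so 14 of each genotype. No other treatment is given in the labels, which also do not say what drives the transgene or how many cells went into a library.

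COPII coats form at ER exit sites when the exchange factor Sec12 (gene Preb) loads the GTPase Sar1 with GTP, and they carry newly made membrane and secreted proteins toward the Golgi. COPI coats are recruited by Arf GTPases and their exchange factor Gbf1, and they return escaped ER proteins and cargo receptors and move material within the Golgi. Neurons with long axons depend on this route for the proteins of the axon and synapse. CREB3, named in the title of the series, is a transcription factor held in the ER membrane that is cut free in the Golgi and is known to drive genes of secretion, Arf4 among them.

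Libraries held 22.2 to 64.2 M reads, and levels below are normalized reads as deposited. The median was 37.0 M in Sod1G86R CSN and 31.5 M in WT CSN, and 35.0 M in Sod1G86R and 41.2 M in WT control cells. A list of 10 genes of CSN and other deep-layer neurons summed to 83076 to 119002 in Sod1G86R CSN and 63125 to 109135 in WT CSN, far above 7123 to 22851 in Sod1G86R control cells and 8082 to 17296 in WT control cells. The share of reads from the mitochondrial genome was 3.26% to 10.6% (median 5.47%) in Sod1G86R CSN, against 5.68% to 18.1% (median 9.36%) in WT CSN. In control cells it was 1.01% to 3.78% (median 1.76%) in Sod1G86R, against 0.811% to 2.55% (median 1.10%) in WT. Oligodendrocyte markers summed to 8316 to 99099 in Sod1G86R CSN (median 32409), against 4503 to 295517 in WT CSN (median 73556), and none of the 8 markers was at 0 in every library.

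Per kb of exon, the small GTPases led the list. In WT CSN, Arf1, which recruits COPI, averaged 14345 normalized reads per kb, Rab2a, which acts between the Golgi and the ER, averaged 8479.7 and Arf5 averaged 5789.6. At the other end of the order stood Sec24a, a cargo-binding COPII subunit, at 112 and Sec16a, the scaffold of ER exit sites, at 111. Within the COPI coat, whose subunits assemble in equal numbers with Copg1 and Copg2 as alternatives, WT CSN held 1630.2 per kb of Cope, 1280.4 of Copz1 and 750.4 of Copg1, but 445 of Copb1, 311 of Arcn1 and 282 of Copg2. The length counts every annotated exon, with 14.9 kb for Arcn1 and 11.0 kb for Copg1 against 3.35 kb for Cope. Exons that these cells do not use would lower a value per kb, and their part was not tested. The order in WT control cells began with Rab2a (13901 per kb) and Arf1 (11288) and ended with Sec16a (69.4) and Sec24a (63.9).

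The first question was whether Sod1G86R changes these genes in CSN, taken as the unweighted mean of the 4 ages. In CSN 27 of the 49 genes rose in Sod1G86R, none fell, and 22 did not pass (limma, Benjamini-Hochberg adjusted p under 0.05). Among all 19093 genes tested, 12.8% rose and 6.31% fell by the same rule. The median log2 fold change was 0.35 over the 49 genes and -0.05 over all genes tested. The rises covered 6 of 8 COPI subunits, 6 of 12 COPII and exit site genes, 5 of 6 tethers and Rabs, 2 of 3 TRAPP subunits, 2 of 5 SNAREs, 5 of 11 cargo receptors and cycling proteins and 1 of 4 genes of the Arf group. With the log2 mitochondrial share of each library as a covariate, 1 of the 49 rose, the TRAPP subunit Trappc3, and the median was 0.12. Over all genes 7 of 19093 rose with this covariate, against 2438 without it, and the median was -0.002. The mitochondrial share was itself lower in Sod1G86R CSN. Markers of glia and of endothelial and mural cells lay lower too. All 8 of oligodendrocytes (median -0.88, 1 passed) and all 8 of microglia (median -0.77, 2 passed) were below 0. So were all 8 of endothelial and mural cells (median -0.45, none passed) and 7 of 8 of astrocytes (median -0.23, none passed). Of upper-layer and callosal neuron markers 5 of 8 lay below 0 (median -0.12, 1 passed as lower). Inhibitory neuron markers did not lean down, with 3 of 5 tested above 0 (median 0.06, 1 passed as higher). Of the 10 markers of CSN and other deep-layer neurons 8 lay above 0 (median 0.14, 3 passed as higher). With the level of the 24 glial markers as a covariate 21 of the 49 rose, as did 1882 of all 19093 genes. The part of the mitochondrial share was not tested. In bulk samples like these, fewer cells of a type and less RNA per cell cannot be told apart.

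**Figure D1:**
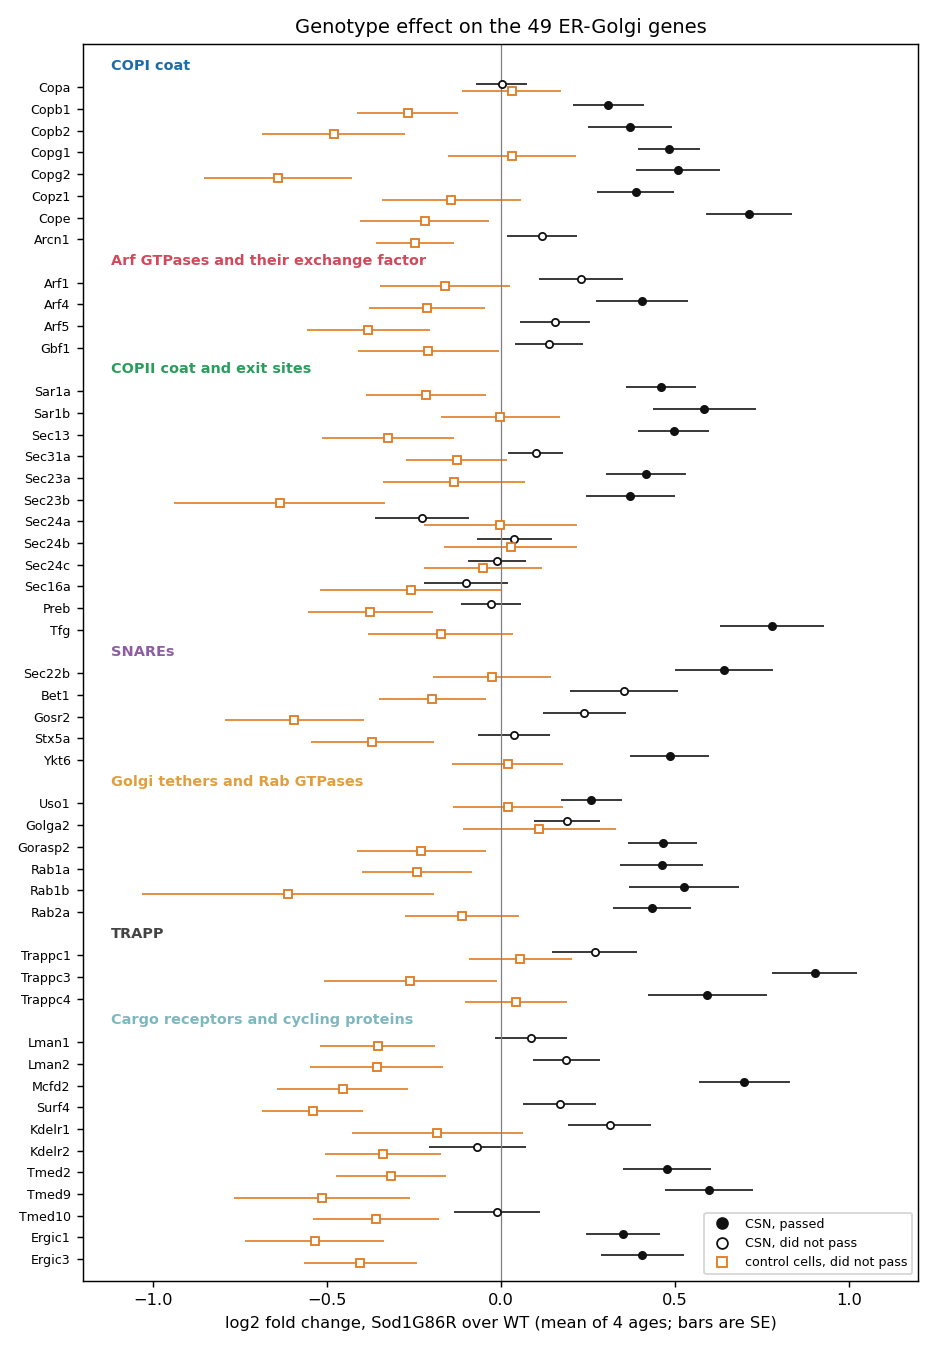
The log2 fold change of Sod1G86R over WT, mean of 4 ages, for the 49 genes by role, with SE as bars; black circles are CSN (filled where the gene passed), orange squares control cells. In CSN 27 circles are filled, all right of 0, and in control cells none passed and 41 of 49 lie left of 0.

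In the COPI coat, Cope and Copg1 had the smallest p-values. Cope, the ε subunit that steadies the outer part of the coat, had 5641 to 12622 normalized reads (median 9287) in Sod1G86R CSN, against 3556 to 8218 (median 5586) in WT CSN. All 13 Sod1G86R libraries lay above the WT mean, though the groups overlapped (log2 fold change 0.71, SE 0.12, adjusted p = 0.000351). Copg1, a γ subunit that binds Arf1 and cargo tails, had 7478 to 16092 normalized reads (median 11279) in Sod1G86R CSN, against 6552 to 10047 (median 8227) in WT CSN (log2 fold change 0.48, SE 0.09, adjusted p = 0.00059). Most Sod1G86R libraries, 12 of 13, were above the WT mean. Given here and below as log2 fold changes in brackets, Copg2 (0.51), Copz1 (0.39), Copb2 (0.37) and Copb1 (0.31) rose too. Copa, the α subunit that reads the retrieval signal of returning cargo together with Copb2, did not pass and stood at 0.00, and Arcn1, the δ subunit, did not pass at 0.12. Copa fell by the test after quantile normalization, the only gene of the 49 to fall under any of the other settings tried.

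Among the Arf GTPases, Arf4 was the gene that passed. It had 3609 to 8391 normalized reads (median 5806) in Sod1G86R CSN, against 2752 to 6781 (median 4795) in WT CSN (log2 fold change 0.41, SE 0.13, adjusted p = 0.0312). It lost the call in 7 of 16 other settings and without any 1 of 8 of the 29 libraries, with adjusted p up to 0.0794. Arf1 had 21942 to 47598 normalized reads (median 35026) in Sod1G86R CSN, against 18922 to 44874 (median 29827) in WT CSN and did not pass (log2 fold change 0.23, SE 0.12, adjusted p = 0.172). Arf5 (0.16) and Gbf1 (0.14) did not pass either.

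Of the COPII group 6 of 12 rose. Tfg, which gathers COPII vesicles at the exit site and is mutated in inherited forms of motor neuron disease and neuropathy, had 2878 to 9494 normalized reads (median 6414) in Sod1G86R CSN, against 1992 to 5201 (median 4027) in WT CSN (log2 fold change 0.78, SE 0.15, adjusted p = 0.000793). Sec13, which builds the outer cage together with Sec31, had 1995 to 4382 normalized reads (median 3399) in Sod1G86R CSN, against 1612 to 3219 (median 2481) in WT CSN (log2 fold change 0.50, SE 0.10, adjusted p = 0.00141). In both genes most Sod1G86R libraries were above the WT mean, 11 and 12 of 13, and the groups overlapped. Both Sar1 GTPases rose, Sar1b by 0.58 and Sar1a by 0.46, as did both Sec23 subunits, Sec23a by 0.42 and Sec23b by 0.37. The other 6 did not pass, namely the cargo-binding subunits Sec24a (-0.23), Sec24b (0.04) and Sec24c (-0.01), the cage subunit Sec31a (0.10), the scaffold Sec16a (-0.10) and Preb (-0.03). Sar1b and Sec24a lie head to head on chromosome 11 (GRCm38), with Sar1b starting at 51763687 on the plus strand and Sec24a at 51763634 on the minus strand. Sec24a had 681 to 1475 normalized reads (median 1061) in Sod1G86R CSN, against 778 to 1993 (median 1219) in WT CSN, and the groups overlapped over most of their range.

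Of the SNAREs, which pull vesicle and target membranes together, Sec22b and Ykt6 rose. Sec22b had 1928 to 6546 normalized reads (median 4516) in Sod1G86R CSN, against 1836 to 3710.4 (median 3001) in WT CSN (log2 fold change 0.64, SE 0.14, adjusted p = 0.00218). Ykt6, a SNARE held to membranes by lipid anchors, had 3308 to 5353 normalized reads (median 3812) in Sod1G86R CSN, against 1948 to 4559.5 (median 2771) in WT CSN (log2 fold change 0.49, SE 0.11, adjusted p = 0.00372), with all 13 Sod1G86R libraries above the WT mean. Their partners did not pass, with Bet1 at 0.35, Gosr2 at 0.24 and Stx5a at 0.04. Among tethers and Rabs, Gorasp2, which links Golgi stacks, had 2476 to 5288 normalized reads (median 3547) in Sod1G86R CSN, against 2183 to 3699 (median 2779) in WT CSN (log2 fold change 0.46, SE 0.10, adjusted p = 0.00188). Rab1a, a GTPase that recruits tethers to ER-derived vesicles, had 7176 to 15646 normalized reads (median 11288) in Sod1G86R CSN, against 5241 to 11605 (median 8418) in WT CSN (log2 fold change 0.46, SE 0.12, adjusted p = 0.00788). In these genes Sod1G86R libraries were the higher ones, though they overlapped WT. Rab1b (0.53), Rab2a (0.43) and the tether Uso1 (0.26) also rose, and Golga2, the Golgi partner of Uso1, did not pass at 0.19.

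Trappc3 had the largest fold change of the 49. It is a core subunit of TRAPP, the complex that catches COPII vesicles and activates Rab1. It had 1541 to 4628 normalized reads (median 3193) in Sod1G86R CSN, against 998 to 2146 (median 1690.4) in WT CSN (log2 fold change 0.90, SE 0.12, adjusted p = 6.84e-05). It was also the gene that passed with the mitochondrial share as a covariate (0.54, adjusted p = 0.0477), and it kept its call without each of the 29 libraries in turn, with adjusted p up to 0.000978. At 30 days its levels were 2646, 2989 and 4022 in Sod1G86R CSN, against 1381, 1409.6, 1572 and 1808 in WT CSN. At 60 days they were 1541, 2109.5, 3193 and 4045 in Sod1G86R CSN, against 998, 1536, 1726 and 1789 in WT CSN. The groups were apart at 30 days and overlapped at 60 days, when 1 Sod1G86R library lay among the WT ones. At 90 days they were 2236, 3187, 3273 and 3333 in Sod1G86R CSN, against 1598, 1604, 2055 and 2146 in WT CSN. At 105 days they were 3597 and 4628 in Sod1G86R CSN, against 1655, 1787, 1942 and 2098 in WT CSN, again with no overlap. Trappc4 rose by 0.59 and Trappc1 did not pass at 0.27; reads of Trappc4 cannot be parted from those of Rps25, whose exons it overlaps, because the kit does not mark strand.

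Of the cargo receptors, Mcfd2 and Tmed9 had the smallest p-values. Mcfd2, the soluble partner of the lectin receptor Lman1 in the export of clotting factors, had 1955 to 6200.3 normalized reads (median 3552) in Sod1G86R CSN, against 1429 to 3021 (median 2039) in WT CSN (log2 fold change 0.70, SE 0.13, adjusted p = 0.000672). Lman1 itself did not pass at 0.09. Tmed9, of the p24 family of cargo adaptors, had 3469 to 7101 normalized reads (median 4209.6) in Sod1G86R CSN, against 2100.1 to 4221 (median 2983) in WT CSN (log2 fold change 0.60, SE 0.13, adjusted p = 0.00171), with all 13 Sod1G86R libraries above the WT mean. Its family member Tmed2 rose by 0.48, and Tmed10, with which Tmed2 pairs, did not pass at -0.01. The cycling proteins Ergic3 (0.41) and Ergic1 (0.35) rose. The receptors Kdelr1 (0.31) and Kdelr2 (-0.07), which return ER-resident proteins, the lectin Lman2 (0.19) and the receptor Surf4 (0.17) did not pass.

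**Figure D2:**
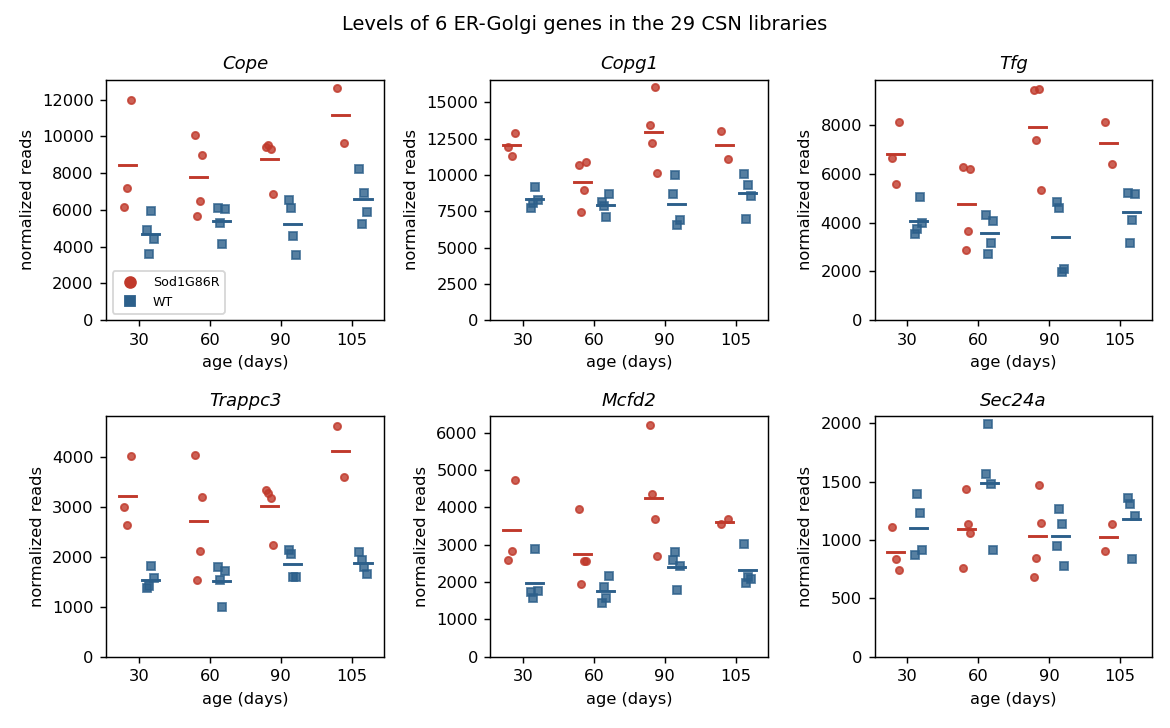
Normalized reads (y axis from 0) of 6 genes in the 29 CSN libraries by age in days; red circles are Sod1G86R and blue squares WT, 1 point per library, and bars are group means. Trappc3, Cope, Copg1, Tfg and Mcfd2 have higher Sod1G86R means at every age, and Sec24a does not separate.

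The same comparison was then made at each age. At 90 days 7 of 49 genes rose in Sod1G86R CSN and none fell, against 3.48% of all genes that rose at that age. They were Tfg, Copg1, Gorasp2, Sec13, Sec23b, Cope and Sar1b. Tfg had 5332, 7403, 9429.7 and 9494 in Sod1G86R CSN, against 1992, 2111, 4621 and 4855 in WT CSN, with no overlap (log2 fold change 1.30, SE 0.28, adjusted p = 0.0231). Copg1 had 10116, 12237, 13454 and 16092 in Sod1G86R CSN, against 6552, 6906, 8696 and 9977 in WT CSN, also with no overlap (log2 fold change 0.69, SE 0.17, adjusted p = 0.0236). Sec23b, an inner coat subunit, had 1884, 2614, 2789 and 3853 in Sod1G86R CSN, against 1031, 1407, 1589.5 and 1869 in WT CSN, and here too every Sod1G86R library was higher (log2 fold change 0.89, SE 0.24, adjusted p = 0.0321). The count was 0 without Sod1G86R 90-day replicate 3, 5 or 6 or WT 90-day replicate 7 or 9, and it was 11 to 14 without Sod1G86R 30-day replicate 6, 60-day replicate 1 or 3 or WT 90-day replicate 6. It was 18 without Sod1G86R 90-day replicate 8. With the mitochondrial share as a covariate it was 0. At this age Sod1G86R CSN libraries held 36.9 to 58.9 M reads and WT CSN libraries 22.8 to 32.8 M, with no overlap. The part of the number of reads in the result was not tested.

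At 30, 60 and 105 days none of the 49 passed in limma, with 13, 8 and 7 genes at an unadjusted p under 0.05, against 13.5%, 7.86% and 8.02% of all genes. DESeq2 called 2 at 30 days and none at 60 or 105 days, and edgeR called none at these ages. The medians over the 49 genes were 0.31, 0.23, 0.52 and 0.31 at 30, 60, 90 and 105 days, against -0.03, -0.01, -0.02 and -0.03 over all genes. Trappc3 had the smallest p of the 49 at 30 days (1.03, adjusted p = 0.128), 60 days (0.77, adjusted p = 0.541) and 105 days (1.12, adjusted p = 0.541). A limma F test of whether the genotype effect differs between ages called none of the 49, with none at an unadjusted p under 0.05, against 3.10% of all genes. Between 105 and 30 days none of the 49 passed in limma within Sod1G86R CSN or WT CSN, where 0 and 3 were at an unadjusted p under 0.05 (3.49% and 6.22% of all genes), or within Sod1G86R or WT control cells, where 1 and 11 were (7.78% and 12.5% of all genes); edgeR and DESeq2 also called none in these 4 comparisons. Without WT control 105-day replicate 12, limma called 4 of the 49 between 105 and 30 days in WT control cells.

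Promoters of the genes were compared for short motifs, since 24 of the 42 genes with a promoter in the RefSeq table rose in CSN. The table (build GRCm38.p6) gives 250 bases before to 50 after each start and lacks Arcn1, Kdelr2, Lman1, Rab2a, Tmed2, Trappc1 and Trappc4. Of 14 motifs tried on both strands, those described were chosen after their counts were seen. TGACGTGG, the core of an element known from the unfolded protein response, was in 6 of the 42 genes (14.3%), namely Arf1, Copb1, Copb2, Gbf1, Sec23a and Stx5a, against 193 of 27025 genes with a promoter (0.714%). ACGTGGC, known as a Golgi stress element, was in 12 of 42 (28.6%), against 2.95% of all genes, and it overlaps the first motif in Arf1, Sec23a and Stx5a. TGACGTCA, the cAMP response element, was in 2 of 42 (4.76%), against 2.03%. GCGGAAG, an ETS-type motif, was in 8 of 42 (19.0%), against 6.53%. GGCCCGCCC, a GC box, was in 3 of 42 (7.14%), against 2.94%. The CCAAT box alone was in 17 of 42 (40.5%), against 41.1%, and TGACGCAA and TGATGCAA were in none (0.562% and 1.03% of all genes). All genes with a promoter were counted, whether or not they were tested in CSN. The ER stress element, CCAAT and CCACG with 9 bases between, was in none of the 42, against 0.137% of all genes, and neither was its second form, ATTGG and CCACG with 1 base between (0.0444%). In CSN 3 of 6 holders of TGACGTGG rose and 21 of 36 genes without it did, and 7 of 12 holders of ACGTGGC rose and 17 of 30 without it did. A motif is a match of letters and does not show that a factor binds there.

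The promoters of the 3 genes that hold TGACGTGG and rose in CSN are shown 5′ to 3′ on the strand of the gene, from 250 bases before the start to 20 after it, with the motif in capitals (TGACGTGG, or CCACGTCA where it lies on the other strand). The motif begins 28 bases before the start in Copb1, 7 before it in Copb2 and at base 7 after it in Sec23a.
Copb1 (chr7:114254661-114254930, minus strand): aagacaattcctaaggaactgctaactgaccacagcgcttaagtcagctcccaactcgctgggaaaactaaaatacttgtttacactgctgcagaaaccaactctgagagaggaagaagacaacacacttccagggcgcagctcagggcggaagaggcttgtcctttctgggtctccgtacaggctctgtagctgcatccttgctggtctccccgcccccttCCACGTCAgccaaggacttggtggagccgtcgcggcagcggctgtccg
Copb2 (chr9:98563481-98563750, plus strand): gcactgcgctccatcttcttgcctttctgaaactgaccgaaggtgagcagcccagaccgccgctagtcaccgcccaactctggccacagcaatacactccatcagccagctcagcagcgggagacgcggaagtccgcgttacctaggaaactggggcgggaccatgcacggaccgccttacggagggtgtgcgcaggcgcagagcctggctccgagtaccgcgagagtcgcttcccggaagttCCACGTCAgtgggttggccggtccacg
Sec23a (chr12:59011998-59012267, minus strand): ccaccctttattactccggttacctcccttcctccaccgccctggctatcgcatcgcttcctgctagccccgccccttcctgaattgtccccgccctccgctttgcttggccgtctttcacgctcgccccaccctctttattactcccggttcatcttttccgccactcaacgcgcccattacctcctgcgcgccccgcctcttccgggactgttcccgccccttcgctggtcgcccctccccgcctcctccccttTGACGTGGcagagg

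In control cells none of the 49 genes passed over the 4 ages, where 0.0716% of 20944 genes were called. In limma 13 of the 49 were at an unadjusted p under 0.05, against 11.7% of all genes, and edgeR and DESeq2 called none. The fold changes leaned down, with 41 of 49 below 0 and a median of -0.23, against -0.01 over all genes. Without the 60-day libraries the median was -0.07, with 16 of 49 above 0. Adjusting for the mitochondrial share gave -0.06 and for the glial marker level -0.17. Markers of other cells moved with the genotype in control cells. Of 24 markers of astrocytes, oligodendrocytes and microglia 23 lay below 0 (median -0.65, none passed), and all 6 of inhibitory neurons lay above 0 (median 1.33, 1 passed). Microglial markers summed to 12078 to 96363 in Sod1G86R control cells, against 16426 to 211143 in WT control cells, and inhibitory neuron markers to 420.4 to 36475 in Sod1G86R, against 279 to 10301 in WT. The part of these cells in the lean was not tested. Surf4, a receptor that speeds export of soluble cargo, had 1916 to 3838 normalized reads (median 2228) in Sod1G86R control cells, against 1839 to 5833 (median 3162) in WT control cells (log2 fold change -0.54, SE 0.15, adjusted p = 0.148). Copg2 had 475 to 3007 normalized reads (median 1286) in Sod1G86R control cells, against 1111 to 3330.5 (median 2069) in WT control cells (log2 fold change -0.64, SE 0.21, adjusted p = 0.266). Sod1G86R medians were the lower ones in both genes, but neither difference passed. The other genes with the smallest p-values of their groups gave Ergic1 -0.54, Gosr2 -0.59, Copb2 -0.48, Arf5 -0.38, Arf4 -0.21, Preb -0.37, Sec23b -0.64, Stx5a -0.37, Rab1a -0.24, Rab1b -0.61 and Trappc3 -0.26, and none passed.

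At 60 days Ergic1, which cycles between the ER and the Golgi, fell in control cells. It had 802, 1266 and 1503 in Sod1G86R control cells, against 3335 and 5193 in the pair of WT libraries (log2 fold change -1.82, SE 0.47, adjusted p = 0.0463). It was 1 of 49 to fall, near the 1.29% of all genes that fell at that age. Exons of Ergic1 overlap those of Dusp1, whose reads cannot be parted without strand. Leaving out any 1 of 15 of the 28 libraries gave no call among the 49. At this age 43 of the 49 lay below 0, with a median of -0.74 against -0.05 over all genes, and Gosr2 (-1.75, adjusted p = 0.0522), Surf4 (-1.26, adjusted p = 0.054) and Tmed9 (-2.17, adjusted p = 0.0582) came next. The mitochondrial share of these groups was 1.77% to 2.47% in Sod1G86R and 0.811% to 1.04% in WT. The mean log2 level of the 24 glial markers was 11.5, 12.2 and 12.6 in the Sod1G86R libraries, against 14.0 and 14.1 in the pair of WT libraries, which were the highest of the 28 control libraries. Detected genes numbered 37231, 38874 and 39527 in Sod1G86R, against 25467 and 34408 in WT, where 25467 was the lowest of all 57 libraries. The part of these in the result was not tested. None of the 49 passed in limma at 30, 90 or 105 days in control cells, where 5, 0 and 0 were at an unadjusted p under 0.05 (5.25%, 2.81% and 4.45% of all genes), and edgeR and DESeq2 also called none. The F test of the genotype effect across ages called none, with 8 at an unadjusted p under 0.05, against 2099 of all 20944 genes. The medians over the 49 were -0.30, -0.74, 0.02 and 0.05 at 30, 60, 90 and 105 days.

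Whether the genotype effect differs between the cell types was tested by the difference of the 2 effects, CSN minus control cells. It was positive and passed in 17 of the 49 genes and in the other direction in none, against 3.84% and 2.42% of all 22032 genes tested. The genes were Mcfd2, Tmed9, Tmed2, Ergic1, Ergic3 and Surf4 of the cargo group, Copg2, Cope, Copb2 and Copb1 of COPI, Tfg, Sec13 and Sar1a of COPII, Gorasp2, Rab1a, Gosr2 and Trappc3. For Mcfd2 the effect was 0.70 in CSN and -0.45 in control cells (difference 1.15, SE 0.23, adjusted p = 0.00653). For Copg2 it was 0.51 in CSN and -0.64 in control cells (difference 1.15, SE 0.25, adjusted p = 0.0106). Surf4 stood at 0.17 in CSN and -0.54 in control cells, though neither effect passed on its own (difference 0.71, adjusted p = 0.0185). Ykt6, Copg1, Sar1b and Sec22b rose in CSN but their differences did not pass, with 0.47, 0.45, 0.59 and 0.67. Arf4 (0.62) and Arf5 (0.54) did not pass. The count of 17 was 0 with the mitochondrial share or the number of detected genes as a covariate and 0 without the 60-day libraries. Positive differences that passed then numbered 0, 1 and 0 over all genes, against 846 in the main fit. The count among the 49 was 8 without Sod1G86R 105-day CSN replicate 13 or WT 60-day control replicate 1. It was 10 without Sod1G86R 30-day CSN replicate 6 and 11 without Sod1G86R 60-day control replicate 3.

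The levels were also set against each other between the cell types, within each genotype. In Sod1G86R 19 of 49 genes were higher in CSN and 9 lower, against 24.9% and 30.6% of all genes. In WT 12 were higher and 31 lower, against 26.8% and 29.5%. The medians over the 49 were 0.12 in Sod1G86R and -0.52 in WT, and over all genes they were -0.04 in Sod1G86R and -0.03 in WT. The change between genotypes is the same difference of effects as above, which passed in 17 of the 49. With the mitochondrial share as a covariate 30 were higher and 2 lower in Sod1G86R, and 14 were higher and 2 lower in WT. Of all 22032 genes 4633 were then higher and 5635 lower in Sod1G86R, and 2166 higher and 3009 lower in WT. The medians over the 49 were then 0.76 in Sod1G86R and 0.57 in WT, against -0.05 and -0.06 over all genes. So the sign of the WT median turned in this fit, and with detected genes as a covariate the Sod1G86R median over the 49 turned to -0.13. The mitochondrial shares given above were larger in CSN in both genotypes. In WT they did not overlap (5.68% to 18.1% in CSN, 0.811% to 2.55% in control cells). In Sod1G86R they barely did (3.26% to 10.6% and 1.01% to 3.78%). The fit can therefore hardly part this covariate from the cell type, and the turned signs do not settle the direction. Oligodendrocyte marker sums had medians of 32409 in CSN and 394080.0 in control cells in Sod1G86R, and 73556 in CSN and 505940.0 in control cells in WT, and the part of either in these differences was not tested.

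**Figure D3:**
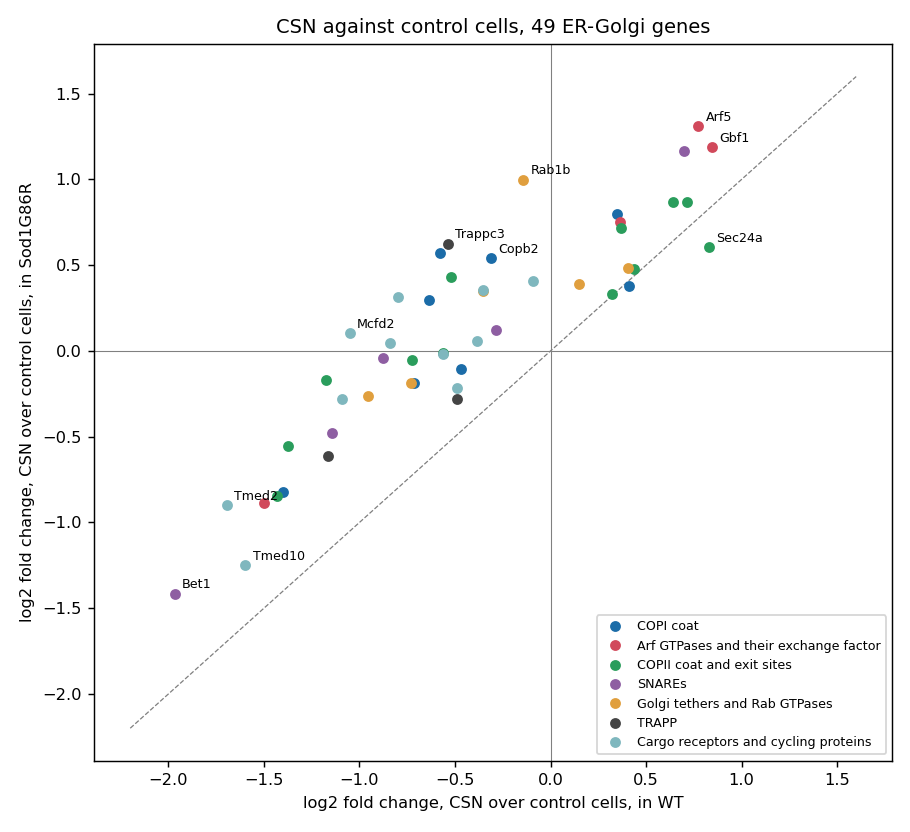
The log2 fold change of CSN over control cells in Sod1G86R (y axis) and in WT (x axis) for the 49 genes, coloured by role; the dashed line marks equal values. Of the points 47 of 49 lie above the line, and Bet1, Tmed2 and Tmed10 are low and Arf5 and Gbf1 high in both genotypes.

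Some genes had the same order in both genotypes. Bet1, a SNARE of ER-derived vesicles, had 1059 to 2616 normalized reads (median 1561) in Sod1G86R CSN, against 2247 to 7013 (median 4226) in Sod1G86R control cells (log2 fold change -1.42, SE 0.16, adjusted p = 2.29e-10). In WT it had 676 to 2885 normalized reads (median 1125) in WT CSN, against 3089 to 7524 (median 4995) in WT control cells (log2 fold change -1.97, SE 0.15, adjusted p = 1.49e-15). No WT CSN library reached any WT control library for this gene. Tmed10, a p24 adaptor, was lower in CSN in Sod1G86R (-1.25, adjusted p = 5.9e-09) and WT (-1.60, adjusted p = 1.09e-12), and so was Tmed2 (-0.90, adjusted p = 1.14e-06 and -1.69, adjusted p = 9.07e-15). Copb1 had 1868 to 4696 normalized reads (median 3089.6) in Sod1G86R CSN, against 3947 to 8968 (median 5001) in Sod1G86R control cells (log2 fold change -0.82, SE 0.12, adjusted p = 2.71e-07). In WT it had 1921 to 3119 normalized reads (median 2414) in WT CSN, against 3916 to 9534 (median 6454) in WT control cells (log2 fold change -1.40, SE 0.12, adjusted p = 2.5e-14), with no overlap. The β subunit was thus lower in CSN, while Copa was higher in both genotypes (0.38, adjusted p = 0.00251 in Sod1G86R and 0.41, adjusted p = 0.000623 in WT).

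Among the genes higher in CSN were Arf1, Arf5 and Gbf1 of the Arf group and several large coat and scaffold genes, while Arf4 was lower (-0.88, adjusted p = 4.91e-06 in Sod1G86R, and -1.50, adjusted p = 2.67e-12 in WT, with no overlap in WT). Arf5 had 9305 to 15949 normalized reads (median 12085) in Sod1G86R CSN, against 2032 to 8346 (median 4893) in Sod1G86R control cells, with no overlap (log2 fold change 1.31, SE 0.15, adjusted p = 1.05e-10). Gbf1 had 1693 to 2726 normalized reads (median 1919) in Sod1G86R CSN, against 501 to 2021 (median 827) in Sod1G86R control cells (log2 fold change 1.19, SE 0.16, adjusted p = 9.06e-09). In WT it had 1291 to 2349 normalized reads (median 1934) in WT CSN, against 551 to 1829.9 (median 997) in WT control cells (log2 fold change 0.84, SE 0.15, adjusted p = 3.3e-06). CSN libraries were the higher ones in both genotypes. Ykt6 was higher in Sod1G86R (1.17, adjusted p = 5.68e-10), with no overlap, and in WT (0.70, adjusted p = 9.6e-06). Sec31a (0.87 in Sod1G86R, 0.64 in WT), Sec16a (0.87 and 0.71), Sec24a (0.60 and 0.83), Sec24c (0.48 and 0.44), Preb (0.72 and 0.37), Copg1 (0.80 and 0.35) and Golga2 (0.48 and 0.41) passed in the same direction. Sar1b (-0.84 and -1.43), Sec13 (-0.55 and -1.37), Sec22b (-0.48 and -1.14) and Trappc4 (-0.61 and -1.16) were lower in CSN in both. Copg2, Trappc3 and Rab1a were higher in CSN in Sod1G86R (0.57, 0.63 and 0.35) and lower in CSN in WT (-0.58, -0.54 and -0.35), and their difference of effects passed. Gorasp2, Rab2a and Arcn1 did not pass in Sod1G86R (-0.26, -0.19 and -0.11) and were lower in CSN in WT (-0.95, -0.73 and -0.47). Adjusted for the mitochondrial share, which can hardly be parted from the cell type, the sign turned for 15 of the 49 genes in Sod1G86R and 30 in WT. Of the genes that had passed, Sec13, Sec22b, Sec24a and Trappc4 turned in Sod1G86R, and 25 turned in WT, among them these 4 and Copg2, Trappc3, Rab1a, Gorasp2, Rab2a, Arcn1 and Surf4. Surf4 was higher in CSN in Sod1G86R (0.36) and lower in WT (-0.35), and Uso1 was higher in Sod1G86R (0.39) and did not pass in WT (0.15). Over 17 other settings Arf4, Sar1b and Tmed2 kept their sign but shrank. They came to -0.07, -0.20 and -0.06 in Sod1G86R and to -0.11, -0.33 and -0.26 in WT. Each lost its call in 2 of these settings in Sod1G86R and in 1 in WT. Copb1 lost its call in 1 in each genotype, and Bet1 and Tmed10 in 0.

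Several coat and GTPase genes come as pairs of close relatives, and the log2 ratio of a pair within a library does not depend on how libraries are scaled. For 7 pairs, 28 ratios were compared, 14 between genotypes by a two-sided permutation within ages and 14 between cell types by a two-sided exact sign-flip test over animals, with p-values adjusted over the 28, and 9 passed. Arf5 to Arf4 was the sharpest. In Sod1G86R animals with both libraries the log2 ratio was 1.05 ± 0.49 in CSN and -1.17 ± 0.75 in control cells (SD, 11 animals), higher in CSN in 11 of 11 (difference 2.22, adjusted p = 0.00456, exact test). In WT animals it was 1.31 ± 0.30 in CSN and -1.003 ± 0.50 in control cells (SD, 14 animals), and it was higher in CSN in 14 of 14 (difference 2.32, adjusted p = 0.00171, exact test). So reads of Arf5 outnumbered those of Arf4 in every CSN library, and Arf4 reads were the more numerous ones in control cells but for 1 of 28 libraries. Arf4 overlaps exons of Arf4os and Pde12 and Arf5 overlaps Gcc1, whose reads cannot be parted without strand.

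Sar1b to Sar1a was lower in CSN, with a difference of -0.76, adjusted p = 0.00456 in Sod1G86R (11 of 11 animals, exact test) and of -0.75, adjusted p = 0.00171 in WT (14 of 14, exact test). For Copg2 to Copg1 the difference between CSN and control cells did not pass in Sod1G86R (-0.35, adjusted p = 0.0984, exact test), and in WT the ratio was lower in CSN (-0.84, adjusted p = 0.00228, 13 of 14 animals, exact test). Copg2 to Copg1 was also lower in Sod1G86R than in WT control cells (permutation, -0.67, adjusted p = 0.00456). Reads of Copg2 overlap those of Mest, an imprinted neighbour. In CSN, Kdelr2 to Kdelr1 was lower in Sod1G86R (permutation, -0.38, adjusted p = 0.0284) and Sec24b to Sec24a was higher (permutation, 0.27, adjusted p = 0.0273). Kdelr2 to Kdelr1 was also lower in CSN than in control cells in Sod1G86R (-0.71, adjusted p = 0.0273, 9 of 11 animals, exact test). The ratios of Kdelr2 to Kdelr1 and Sec24b to Sec24a lost their calls when single ages or some single libraries were left out. Without the 90-day libraries Arf5 to Arf4 and Sar1b to Sar1a lost theirs in Sod1G86R, with differences of 2.39 and -0.83. With fewer animals the smallest p that the exact test can give is larger, so these losses do not measure a weaker difference. Without the 30-day libraries Copg2 to Copg1 lost its call in control cells (-0.58). No ratio of Sec23b to Sec23a or Rab1b to Rab1a passed.

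**Figure D4:**
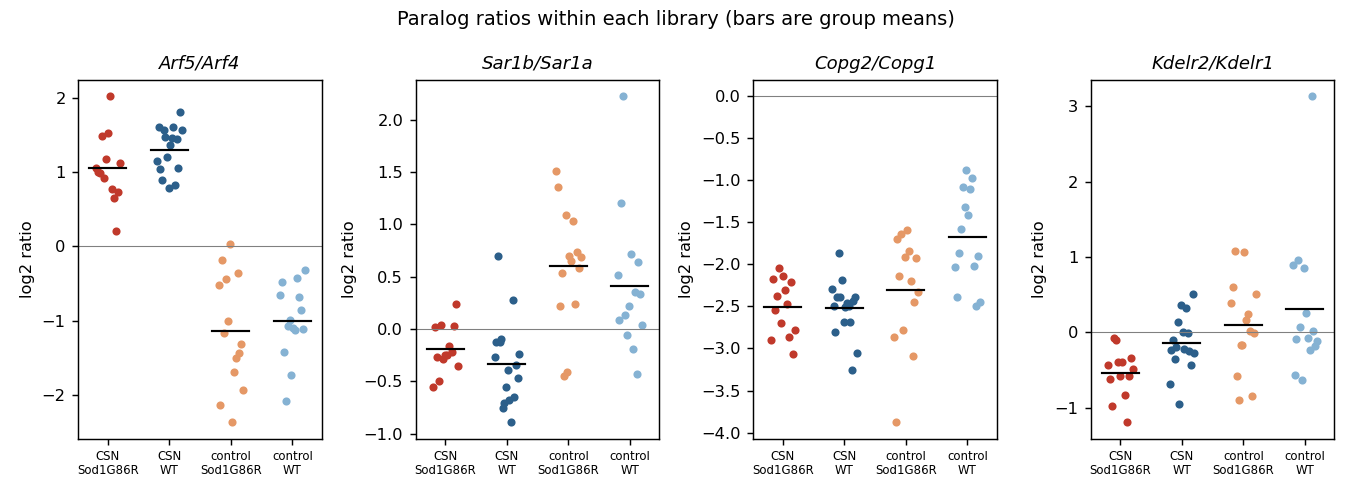
The log2 ratio of 4 pairs of related genes in each of the 57 libraries, 1 point per library and bars for group means, in Sod1G86R and WT CSN and in Sod1G86R and WT control cells. Arf5 to Arf4 is above 0 in every CSN library and below 0 in all but 1 control library.

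Exon length went with the genotype effect in CSN among these genes. Of 15 genes with up to 3 kb of exon 10 rose, of 19 with 3 to 6 kb 13 rose, and of 15 longer ones 4 rose. The medians were 0.48, 0.41 and 0.10. Over all genes tested 13.5%, 14.4% and 9.53% of these length classes rose, with the lowest share in the longest class too, and the medians were -0.05, -0.03 and -0.06. The correlation of log2 length with log2 fold change across the 49 genes was r = -0.51 (Spearman -0.50), and r = -0.01 across 19021 genes with a length. Across genes of the same libraries this is a description, since the genes share depth and RNA quality. The length covers every annotated exon, and whether it stands for the transcripts these cells use was not tested.

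**Figure D5:**
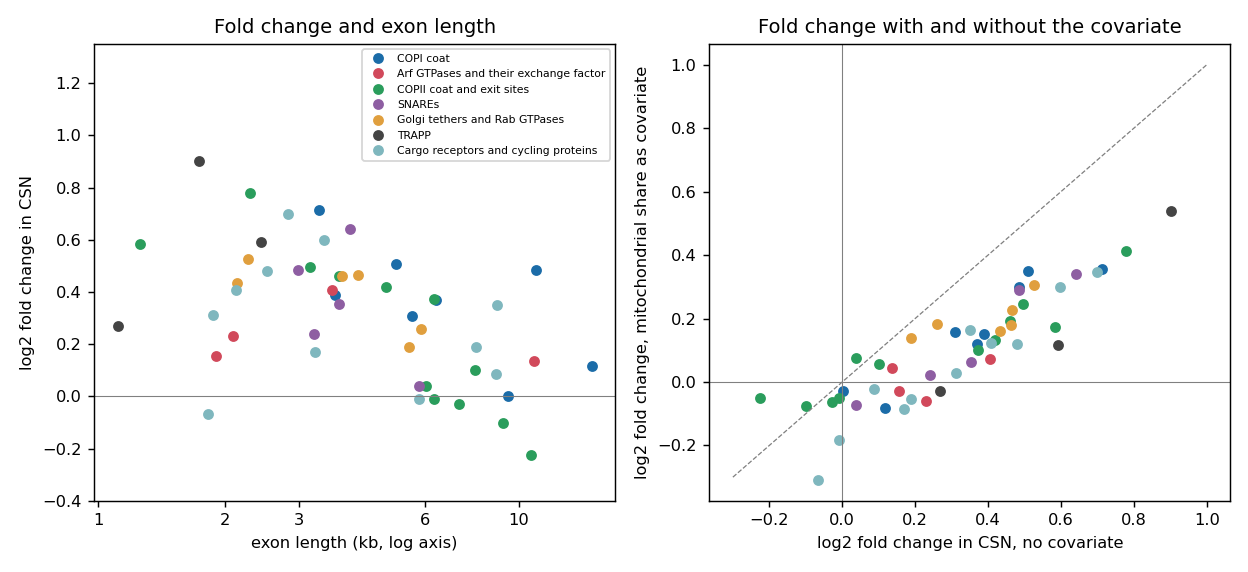
Left, log2 fold change in CSN (Sod1G86R over WT) against exon length in kb on a log axis for the 49 genes; right, the log2 fold change with the mitochondrial share as a covariate against that without it, with a dashed line at equal values. The 15 genes over 6 kb, of which 4 rose, lie lowest on the left as a group, with a median of 0.10, and with the covariate most points fall below the line.

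Other genes of the route were read beside these. Of 58 further ER-Golgi genes tested in CSN, 19 rose and 1 fell, with a median of 0.25. Of all genes tested 12.8% rose and 6.31% fell, with a median of -0.05. Yif1b and Yipf5, membrane proteins of early Golgi transport, rose (log2 fold change 1.03, adjusted p = 0.000351, and log2 fold change 0.59, adjusted p = 0.000836). Napa, which helps to take SNARE complexes apart, rose as well (log2 fold change 0.68, adjusted p = 0.000997). Sec24d, another Sec24 subunit, fell (log2 fold change -1.06, adjusted p = 0.00076), with 43.5 to 317 normalized reads in Sod1G86R CSN, against 186 to 571 in WT CSN. It also leaned down in control cells, where it did not pass (log2 fold change -1.50, adjusted p = 0.0516). Creb3 had 2309 to 6368 normalized reads (median 4147) in Sod1G86R CSN, against 1833 to 3740.1 (median 2644) in WT CSN, and rose (log2 fold change 0.67, adjusted p = 0.000831). In control cells it had 4227 to 8993 normalized reads (median 5736) in Sod1G86R, against 2747 to 10148 (median 6609) in WT, and did not pass (log2 fold change -0.14, adjusted p = 0.729). The difference between the cell types passed for Creb3 (difference 0.81, adjusted p = 0.0202). This call was lost once the mitochondrial share was put in the fit, and also without the 60-day libraries, since no positive difference then passed for any gene. In CSN 7 of 19093 genes rose with that share in the fit, against 2438 without it. Whether Creb3 was among the 7 is not given here. Of 5 genes of the CREB3 family and its protease tested in CSN, Creb3 was the 1 that rose and none fell, against the 12.8% and 6.31% of all genes.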

How the data were processed

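The authors deposited 1 table of normalized read counts per gene, used here as signal values. Per the series' design text, reads were aligned with STAR 2.7.0 to GRCm38 and counted on Ensembl 87 genes. How they were normalized is not given in the sources used; the submitters' processing notes name edgeR with no role. Per the labels' protocols, cDNA came from the SMART-Seq kit version 4, which does not mark strand. In all libraries 100% of values equalled a whole number of reads times a fixed step, to a tolerance of 0.001, and edgeR 4.0.16 and DESeq2 1.42.0 were run on those whole reads.

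The main test was limma 3.58.1 (R 4.3.3; trended, robust prior, 1 coefficient per group) on log2(value + 34.6), a pseudocount set to 1 ppm of a typical library total. Genes needed 3 libraries that reached 34.6. Fold changes on this scale understate the change of low genes. Genotype and age were tested within a fit of each cell type and the other contrasts in a joint fit, and p-values were adjusted over all genes by Benjamini-Hochberg. SD and SE are between libraries. PCR copies were not marked, so reads are not independent molecules. Exon lengths and coordinates are those of GENCODE M21 (GRCm38). Besides the genes named above, others overlap exons of a neighbour whose reads cannot be parted. Among them are Gorasp2 (Tlk1), Copa (Ncstn), Surf4 (Surf2), Golga2 (Swi5) and Preb (Abhd1). Genes were named by the 2 smallest p of each role group (1 for TRAPP) and where they passed against their group's direction. Values per sample are printed for all of these in the CSN genotype comparison and for a subset, chosen after their values were seen, elsewhere. The genes, lists and tests were chosen with earlier results of these data known. Fits were tested on simulated data with no factor shared by the genes of a library beyond its depth. Those tests therefore cannot speak to the mitochondrial share, detected genes or glial marker level. Figures used matplotlib 3.10.9.

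By their labels 25 animals gave a library of both cell types, with a residual correlation of -0.318 to 0.282 between the 2 libraries (median 0.0385), and were taken as independent, with a block by animal as an alternative. The labels do not say that equal numbers pair the genotypes. The lowest correlation between replicates was 0.886. Other pseudocounts, filters, scalings, covariates, tools and left-out libraries were tried.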

Additional observations from a re-analysis of the deposited data

Results flagged for a closer look

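Within the CSN groups of 4 libraries, 78 combinations of gene and group were tested for a library far from the rest, with 13 genes, and 4 stood out. All 4 were in Sod1G86R 90-day CSN replicate 8, where Cope stood at 6868 (9287 to 9504 in the other libraries of the group), Sec22b at 3381 (6109 to 6546), Gorasp2 at 3277 (4901 to 5288) and Trappc3 at 2236 (3187 to 3333). Chance alone flags about 1 in 20 groups, and 1 library shares its depth and RNA across genes. The counts at 90 days with and without this library stand beside the result.

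The genotype effect differed between the cell types by the test of the difference, CSN minus control cells, in 17 genes. On the log2 scale the differences were 0.58 for Copb1, 0.85 for Copb2, 1.15 for Copg2, 0.93 for Cope, 0.67 for Sar1a, 0.82 for Sec13, 0.95 for Tfg, 0.83 for Gosr2, 0.69 for Gorasp2, 0.70 for Rab1a, 1.16 for Trappc3, 1.15 for Mcfd2, 0.71 for Surf4, 0.79 for Tmed2, 1.11 for Tmed9, 0.89 for Ergic1 and 0.81 for Ergic3.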

How the results depend on the processing

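Over 22 counts of the 49 genes and 260 combinations of count and setting, 226 stayed within 1.5 times the value given and 34 did not, and the cause of these moves was not tested. Over 87 named values and 4199 combinations with settings, 198 lost their call, 26 gained one and 9 turned sign. For Sod1G86R against WT in CSN, 27 rises became 12 (and 1 fall) with quantile normalization and 1 with the mitochondrial share. They became 15 with detected genes as a covariate and 11 without the 90-day libraries. Over all genes 2438 rises became 1630, 7, 1267 and 929 in these settings. The count among the 49 was 17 to 29 over left-out libraries, lowest without Sod1G86R 105-day replicate 13. For the difference between cell types, 17 became 9 with no filter, 3 with quantile normalization and 0 with the mitochondrial share or detected genes. It became 1 without the 30-day and 0 without the 60-day libraries, and it was 8 to 25 over left-out libraries. Over all genes 846 became 269 with no filter, 198 with quantile normalization and 31 without the 30-day libraries. It became 0 with the mitochondrial share, 1 with detected genes and 0 without the 60-day libraries. For CSN against control cells in WT, 12 higher became 2 with the glial marker level as a covariate, and 31 lower became 14 with it and 2 with the mitochondrial share. Over all genes 5910 higher became 1808 with the glial marker level, and 6495 lower became 1754 with it and 3009 with the mitochondrial share. In Sod1G86R, 19 higher became 30 with the mitochondrial share, 8 with detected genes and 6 with the glial marker level. The 9 lower became 2, 15 and 3 with these covariates. Over all genes 5481 higher became 4633, 3933 and 2072, and 6752 lower became 5635, 4473 and 2435, in the same order. At 90 days in CSN, 7 became 0 with no filter, 1 with quantile normalization, 0 with the mitochondrial share, 17 with DESeq2 and 18 with the replicate block, with 0 to 18 over left-out libraries. At 30 days in CSN, 0 became 1 with the replicate block and 2 with DESeq2. At 60 days in control cells, 1 became 0 with the smallest pseudocount, no filter, quantile normalization, the mitochondrial share or edgeR, 4 with 4 times the pseudocount and 6 with DESeq2, with 0 to 4 over left-out libraries. Between 105 and 30 days in WT control cells it was 0 to 4.

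With the mitochondrial share as a covariate the sign of CSN against control cells turned for 15 of the 49 genes in Sod1G86R and 30 in WT. Among the genes named by rule, those whose sign turned with the mitochondrial share in WT were Arcn1 (0.0238), Sec13 (0.0682), Sec24a (-0.48), Sec22b (0.00769), Gorasp2 (0.41), Rab2a (0.15) and Trappc4 (0.0660). In Sod1G86R they were Sec13 (0.29) and Trappc4 (0.10).

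Whether equal numbers pair the genotypes is not settled. The correlation of residuals of such pairs was over 0.1 in 5 of 9 in CSN (median 0.242) and 2 of 7 in control cells (median -0.0406). In CSN this median was above that of libraries of the same animal (0.0385). The correlation estimated for the replicate block was 0.269 in CSN and 0.0486 in control cells. The main fits took such pairs as independent, and what the pairs share was not tested. With the replicate block 28 genes rose in CSN over the ages, the difference between cell types passed in 17, and no count other than those at 30 and 90 days in CSN moved by over 1.5 times. The lone genotype and age groups of 2 libraries, with 1 left when a library is left out, were assumed to vary like the other groups. Depth limits low genes most, and the lowest median of the 49 in any group of cell type and genotype was 462 normalized reads (Golga2 in WT control cells).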
